A study of Mus musculus with 224 samples.

Results

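The cytosolic ribosomal protein genes build the 2 subunits of the ribosome that translates messenger RNA outside mitochondria. Here they are the genes whose platform symbol is Rpl or Rps followed by a digit, or Rplp0, Rplp1, Rplp2 or Rpsa, with the S6 kinase genes (Rps6k) and pseudogenes left out. Of 18193 genes with a probeset that carries a single symbol, 50 met this rule, through 106 of the 45037 probesets. Among them, 22 encode proteins of the large subunit, 21 encode proteins of the small subunit, 6 are paralogs of such genes (Rpl22l1, Rpl39l, Rpl3l, Rpl7l1, Rps27l and Rps4l) and 1, Rps19bp1, encodes a protein that binds Rps19. A further 110 probesets list a ribosomal protein gene beside other symbols and were not used, so that genes such as Rplp1, Rpl3, Rpl32 and Rps27a were not analysed here. Each gene was read from its brightest probeset in a region, which was the same probeset in all 5 regions for 47 of the 50 genes.

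Male C57BL/6J mice, 10 weeks old at purchase, had been placed in 4 treatment groups, and 5 brain regions were dissected as whole tissue. From the cortex came the prefrontal area (PFC) and the hippocampus (HPC), and from the ventral striatum the nucleus accumbens (NAC). The extended amygdala gave the central nucleus (CeA) and the stria terminalis bed nucleus (BNST). The study describes 12 mice per group, but the array labels hold 51 mouse numbers, 32 of them with arrays of all 5 regions. Arrays of low quality and outlying arrays had been removed by the authors. CIE Drinking mice received chronic intermittent ethanol (CIE) vapor, in 4 cycles of 4 days with 16 h of vapor each day, and after 72 h of abstinence were offered 15% ethanol for 2 h a day over 5 days. Air Drinking mice had the same access to ethanol but air in the chamber, CIE NonDrinking mice had vapor but only water, and Air NonDrinking mice had air and water; both drinking groups had also gone through 6 weeks of baseline drinking. Ahead of each vapor session the CIE mice got an ethanol injection of 1.6 g/kg together with pyrazole, an inhibitor of alcohol dehydrogenase, at 1 mmol/kg, and air mice were given pyrazole too, so that no group was free of it. The drinking groups had met ethanol more recently at sacrifice than the CIE NonDrinking group, so that drinking and the time since the last ethanol cannot be told apart. The study also reports that CIE Drinking mice drank more ethanol than Air Drinking mice after most vapor cycles. In drinkers, vapor and higher intake therefore cannot be told apart either. Arrays of CIE Drinking mice numbered 12 per region (11 in the NAC), those of Air Drinking mice 12 (11 in the PFC and HPC), and those of CIE NonDrinking mice 12 in the PFC and NAC and 11 elsewhere. Air NonDrinking mice had 12 arrays in the PFC and NAC, 10 in the BNST and 8 in each of the HPC and CeA. Tissue labels were checked against 1 marker per region: the level above the median of all probesets on the log2 scale was 3.08 for Tbr1 in the PFC, 2.61 for Drd2 in the NAC, 2.93 for Prox1 in the HPC, 3.15 for Dlk1 in the BNST and 1.81 for Prkcd in the CeA. In any other region Tbr1 reached at most 1.48, Drd2 0.70 and Prox1 1.01, but Dlk1 stood higher in the NAC (3.76) than in the BNST, and Prkcd was at 1.52 in the BNST, so that Dlk1 and Prkcd do not single out their regions. In the CeA the excitatory neuron gene Neurod6 was also 3.02 above the median, while Tbr1 was 0.66 below it (-0.66).

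Ribosomal proteins are made in matched amounts and assembled with ribosomal RNA in the nucleolus, and their messengers are among the most abundant in most cells. Most of these messengers begin with a run of pyrimidines, the TOP element, through which the kinase mTOR controls their translation rather than their level. In brain, neurons, glia and vessels all use the same genes, and ribosomes are also found in dendrites. A changed level in whole tissue can come from fewer cells of a kind or from less RNA per cell, and the arrays cannot tell these apart.

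The start sites of 5 members whose response differed between PFC and CeA are shown, because shared letters near the start are what these genes are known for. RefSeq held at least 1 window of 300 bases, 250 before and 50 after the start, for 44 of the 50 genes on GRCm38.p6. From 60 bases before the start to 25 bases into the transcript, on the coding strand, the 5 genes with the smallest adjusted p for a difference between PFC and CeA in the interaction of vapor and drinking read as follows, with matches to any of 6 searched patterns in capitals.
Rpl22, chr4:152325666-152325750, plus strand: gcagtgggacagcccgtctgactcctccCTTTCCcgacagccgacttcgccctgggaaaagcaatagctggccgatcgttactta
Rps6, chr4:86857343-86857427, minus strand: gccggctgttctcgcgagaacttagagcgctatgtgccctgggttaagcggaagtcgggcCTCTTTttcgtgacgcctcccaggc
Rps10, chr17:27635220-27635304, minus strand: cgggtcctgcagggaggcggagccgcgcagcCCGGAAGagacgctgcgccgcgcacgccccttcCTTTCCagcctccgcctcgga
Rpl37a, chr1:72711200-72711284, plus strand: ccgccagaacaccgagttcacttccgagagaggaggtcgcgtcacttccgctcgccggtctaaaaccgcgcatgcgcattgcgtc
Rps26, chr10:128626482-128626566, minus strand: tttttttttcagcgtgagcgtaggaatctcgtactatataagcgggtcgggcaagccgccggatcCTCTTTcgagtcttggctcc
The patterns were CCGGAAG (the core bound by ETS factors), AAGATGG (part of the YY1 site), GGGCGG (the GC box), CTCTTT (a pyrimidine run), CTTTCC (another such run) and TATAAA (the TATA box), each searched on both strands of the whole window. Matches to the pyrimidine runs can share letters with each other, as can those to the ETS core and the YY1 pattern. CCGGAAG stood in 21 of 44 windows (47.7%) against 9.93% of the 27025 genes with a window, and CTTTCC in 23 (52.3%) against 29.3%. GGGCGG was found in 26 windows (59.1%) against 38.2% of all genes, CTCTTT in 15 (34.1%) against 25.6%, AAGATGG in 8 (18.2%) against 7.28%, and TATAAA in 6 (13.6%) against 15.7%. A gene was counted where any of its windows held the letters. RefSeq gives Rpl22 a further window, whose start at chr4:152324436 is the outer end of the gene, and the start shown for Rpl22 lies inside the gene, downstream of it. In the stretches shown, Rpl37a has none of the 6 patterns, Rps10 has 2 of them, and Rps6 and Rps26 have a CTCTTT within the first bases of the transcript. A match of letters describes the window and is not evidence of a bound site.

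Most members were bright on the arrays. The mean level of 47 of the 50 genes lay above the median of all probesets in each region, and 35 genes (36 in the CeA) had a mean log2 value above 11. The 3 below the median were Rps16, Rpl39l and Rpl3l in the PFC; Rpl3l is otherwise known from striated muscle, and its PFC values ran from 3.43 to 4.06. Across arrays, with group means removed, the members varied together: the mean pairwise Pearson correlation was 0.277 in the PFC (n = 47 arrays), 0.210 in the NAC (n = 47), 0.326 in the HPC (n = 42), 0.270 in the BNST (n = 45) and 0.224 in the CeA (n = 43). The same mean over all genes was 0.0128 in the PFC and at most 0.0265 in any region, and over the brightest 10% of genes in the PFC it was 0.0367. Genes of the respiratory chain, another set of matched subunits, had 0.305 in the PFC and 0.460 in the CeA. These points share arrays, and probesets of near-identical sequence can share signal, so that the correlations are descriptions.

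**Figure D1:**
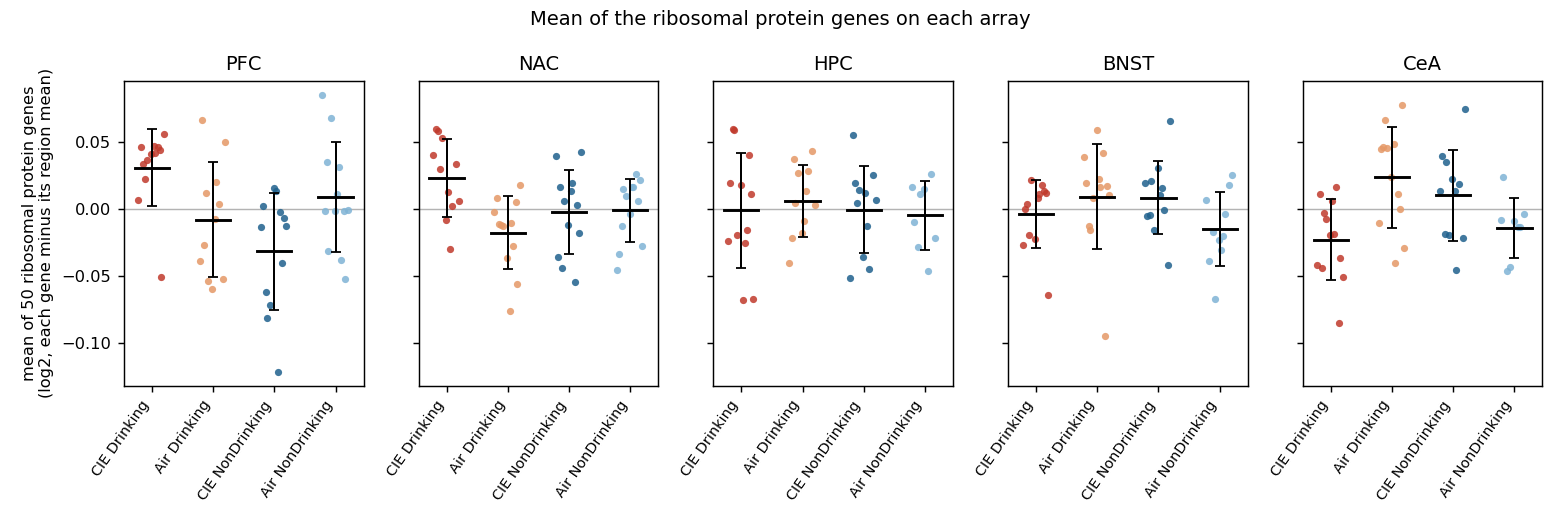
Mean of the 50 ribosomal protein genes on each array, as log2 value minus the mean of that gene in the region (vertical axis), by treatment group in each region. Each point is 1 array, the thick bar is the group mean and the thin bar its SD. In the PFC 11 of 12 CIE Drinking arrays lie above 0 and 3 of 12 CIE NonDrinking arrays do, in the CeA 3 of 12 CIE Drinking arrays lie above 0, and all groups overlap.

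The mean of the members on an array moved little. In the PFC it ran from -0.05 over a median of 0.04 to 0.06 in the CIE Drinking group, from -0.06 over -0.01 to 0.07 in the Air Drinking group, from -0.12 over -0.01 to 0.02 in the CIE NonDrinking group and from -0.05 over 0.00 to 0.09 in the Air NonDrinking group, in log2 units around the region mean of each gene. The CIE Drinking arrays were the highest as a group, with 11 of 12 above 0 against 5 of 11, 3 of 12 and 5 of 12. In the CeA the order differed: the mean ran from -0.09 over -0.02 to 0.02 in the CIE Drinking group, from -0.04 over 0.03 to 0.08 in the Air Drinking group, from -0.05 over 0.01 to 0.07 in the CIE NonDrinking group and from -0.05 over -0.01 to 0.02 in the Air NonDrinking group. There the Air Drinking arrays were highest, and 3 of 12 CIE Drinking arrays and 1 of 8 Air NonDrinking arrays lay above 0. As the plot by group shows, the ranges of all groups overlapped in every region.

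In the PFC, 4 ribosomal protein genes were higher in CIE Drinking mice or in drinkers than in the group compared, and none was lower at an adjusted p of 0.01 or less (limma, Benjamini-Hochberg over all probesets of the region). Comparison 1 (CIE Drinking vs. Air Drinking) asks what vapor, together with the higher intake of CIE Drinking mice, adds in drinkers. It called Rps27l alone, where 1.87% of all probesets were called in either direction and 0.806% as higher. Comparison 3 (CIE Drinking vs. CIE NonDrinking), which asks what drinking adds after vapor, called Rps24, Rpl22 and Rps27l, also beside 1.87% of all probesets called in either direction and 1.15% as higher. No member was called in Comparison 2 (CIE NonDrinking vs. Air NonDrinking; 1.26% of all probesets called), Comparison 4 (CIE Drinking vs. Air NonDrinking; 0.722%), Comparison 5 (CIE NonDrinking vs. Air Drinking; 1.69%) or Comparison 6 (Air Drinking vs. Air NonDrinking; 1.4%). At an unadjusted p under 0.05 these comparisons held 14, 13, 5 and 8 members, beside 18.7%, 28.1%, 11.9% and 25.5% of all genes. For vapor over both drinking conditions no member was called either (0.915% of all probesets), and 4 had an unadjusted p under 0.05, beside 17.7% of all genes. With any 1 array left out, the members called numbered 0 (without Air Drinking mouse 59) to 2 in Comparison 1 and 1 (without CIE NonDrinking mouse 35) to 7 (without CIE Drinking mouse 4) in Comparison 3. Comparisons 1, 3 and 4 share the CIE Drinking arrays. Over all 106 probesets of the members, 3 were called as higher in Comparison 1 and 8 in Comparison 3. For drinking over both chamber treatments 2 were called as higher (1.02% of all probesets), and 1 was called as lower in Comparison 5.

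Rps27l, the paralog of Rps27 that p53 is known to induce, had log2 values in the PFC of 9.94 (lowest), 10.15 (median) and 10.22 (highest) in the CIE Drinking group and 9.79, 9.94 and 10.10 in the Air Drinking group. In the CIE NonDrinking group they were 9.82, 9.95 and 10.12, and in the Air NonDrinking group 9.75, 10.04 and 10.21. The CIE Drinking arrays were the highest by median, with 11 of 12 above the Air Drinking mean and 11 of 12 above the CIE NonDrinking mean, and the ranges overlapped. The log2 fold change was 0.20 ± 0.043 (SE) in Comparison 1, a fold of 1.15 (limma adjusted p = 0.00351), and 0.19 ± 0.042 in Comparison 3 (limma adjusted p = 0.0052). The call in Comparison 1 was lost without Air Drinking mouse 59 (limma adjusted p = 0.0105), and that in Comparison 3 without any 1 of 4 arrays, those of CIE Drinking mouse 6 or 20 and CIE NonDrinking mouse 35 or 40 (largest limma adjusted p = 0.0134). The other probesets of Rps27l had log2 fold changes of 0.18 and 0.20 in Comparison 1. Its paralog Rps27 had 0.05 and 0.07 in the same comparisons (limma adjusted p = 0.513 and 0.221).

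Rpl22, a large subunit protein that also binds RNA outside the ribosome, had PFC values of 12.31, 12.51 and 12.53 (lowest, median and highest) in CIE Drinking mice, 12.26, 12.34 and 12.53 in Air Drinking mice, 12.22, 12.36 and 12.44 in CIE NonDrinking mice and 12.33, 12.38 and 12.55 in Air NonDrinking mice. The CIE Drinking group was high and the CIE NonDrinking group low, with 11 of 12 CIE Drinking arrays above the CIE NonDrinking mean. The log2 fold change in Comparison 3 was 0.15 ± 0.033 (limma adjusted p = 0.00433), a call lost without CIE NonDrinking mouse 34 or 35 (largest limma adjusted p = 0.0117). In Comparison 1 it was 0.11 ± 0.034 (limma adjusted p = 0.0383). Its paralog Rpl22l1 had 0.14 ± 0.052 in Comparison 3 (limma adjusted p = 0.0825). The brightest probeset of Rpl22 carries the suffix of probesets that can match several transcripts, and with such probesets left out the log2 fold change of Rpl22 in Comparison 3 was 0.08 and not called.

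Rps24, a small subunit protein needed for ribosomal RNA processing, was very bright, with PFC values of 13.28, 13.34 and 13.40 in CIE Drinking mice and 13.16, 13.25 and 13.29 in CIE NonDrinking mice. Those of Air Drinking mice were 13.18, 13.28 and 13.32, and those of Air NonDrinking mice 13.18, 13.26 and 13.36. All 12 CIE Drinking arrays lay above the CIE NonDrinking mean, although the ranges overlapped. The log2 fold change in Comparison 3 was the smallest of those called, 0.11 ± 0.024 (limma adjusted p = 0.00368). It was 0.09 with all probesets of Rps24 averaged and 0.14 without probesets that can match several transcripts, neither of them called. Rpl37, a zinc-binding protein of the large subunit, was the member called for drinking over both chamber treatments (1.35% of all probesets called, 1.02% as higher): its log2 values ran from 8.40 to 8.87 in drinkers and from 8.08 to 8.74 in nondrinkers, and the difference was 0.20 ± 0.047 (limma adjusted p = 0.00784), a call lost without any 1 of 25 of the 47 arrays. In Comparison 3 alone, Rpl37 had 0.27 ± 0.066 and missed the threshold narrowly (limma adjusted p = 0.0102). The only probeset of Rpl37 carries a suffix of probesets that can match several transcripts.

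**Figure D2:**
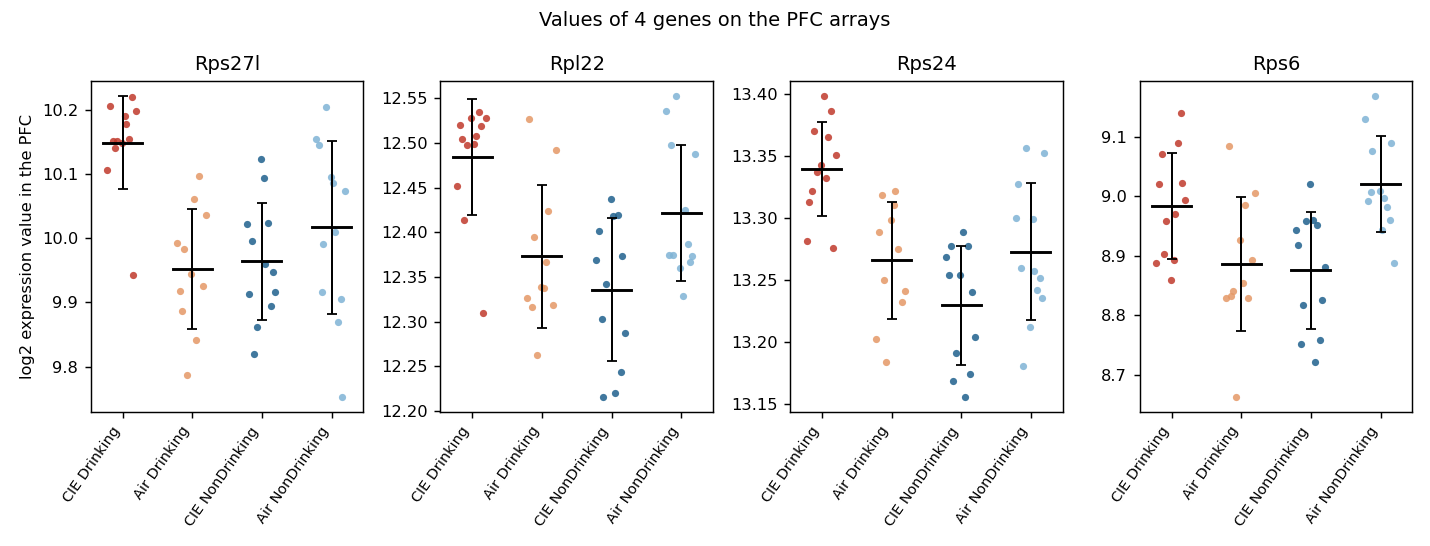
Log2 values of Rps27l, Rpl22, Rps24 and Rps6 on the PFC arrays (vertical axes, not starting at 0) by treatment group. Each point is 1 array, the thick bar is the group mean and the thin bar its SD. CIE Drinking arrays are the highest group for Rps27l, Rpl22 and Rps24, Rps6 is low in the Air Drinking and CIE NonDrinking groups, and all ranges overlap.

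The interaction of vapor and drinking, the vapor difference in drinkers minus that in nondrinkers, called Rps27l, Rpl22 and Rps6 in the PFC, all positive, beside 2.92% of all probesets called in either direction and 1.06% as positive. Rps6, the small subunit protein phosphorylated by S6 kinase, had values of 8.86, 8.98 and 9.14 in CIE Drinking mice, 8.66, 8.85 and 9.08 in Air Drinking mice, 8.72, 8.90 and 9.02 in CIE NonDrinking mice and 8.89, 9.00 and 9.17 in Air NonDrinking mice. It was thus low in both groups with a single exposure: none of 12 CIE NonDrinking arrays reached the Air NonDrinking mean, and 11 of 12 CIE Drinking arrays exceeded the Air Drinking mean. Its interaction was 0.24 ± 0.057 (limma adjusted p = 0.00529), that of Rps27l 0.25 ± 0.060 (limma adjusted p = 0.00625) and that of Rpl22 0.20 ± 0.047 (limma adjusted p = 0.006). With 1 array left out, the members called in the interaction numbered 0 (without Air Drinking mouse 59) to 7 (without CIE Drinking mouse 4). The call of Rps6 was lost without Air Drinking mouse 59, that of Rps27l without any 1 of 5 arrays (largest limma adjusted p = 0.0121) and that of Rpl22 without any 1 of 7 (largest limma adjusted p = 0.0114). A second, dimmer probeset of Rps6 had -0.08 and was not called. Over all 106 probesets of the members, 6 were called in the interaction, all positive.

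The members as a whole leaned the same way in the PFC in Comparisons 1 and 3 and in the interaction, by small steps. In Comparison 1, 42 of 50 had a log2 fold change above 0, with a median of 0.04 and a range from -0.13 to 0.20, against a median of 0.00 over all genes, of which 51.2% were above 0. In Comparison 3 it was 44 of 50, with a median of 0.06 against -0.01 over all genes (42.8% above 0), and 27 members had an unadjusted p under 0.05, beside 20.7% of all genes. Vapor without drinking showed the reverse: in Comparison 2, 7 of 50 members were above 0, beside 48% of all genes, and the median was -0.03. Over all 106 probesets of the members, the median was also below 0 in Comparison 6, drinking without vapor (-0.02). It was 0.03 in Comparison 4, which sets CIE Drinking mice against Air NonDrinking mice. The interaction was above 0 for 44 of 50, with a median of 0.09 against 0.01 over all genes (52.2% above 0). Both subunits took part: in Comparison 1, 21 of 21 small subunit genes and 18 of 22 large subunit genes were above 0, and in Comparison 3, 20 of each. The paralogs were split, with 3 of 6 above 0 in both comparisons. Because the members vary together across arrays, such counts of genes, here and in other regions, do not count independent observations.

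Other members of special role did not pass the threshold. Rplp0 and Rplp2, the stalk proteins that recruit elongation factors, each had a log2 fold change of 0.06 in Comparison 1 and 0.09 in Comparison 3. Rpsa, the small subunit protein also known as a laminin receptor, had 0.00 and 0.05. Among the paralogs, Rpl7l1 had -0.13 ± 0.035 in Comparison 1 (limma adjusted p = 0.0142) while Rpl7 had 0.03, Rpl39l had 0.05 beside 0.07 for Rpl39, and Rps4l had -0.08 beside 0.04 for Rps4x. Rpl3l had -0.19 ± 0.047 in Comparison 4 (limma adjusted p = 0.0159), at a level near the floor.

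**Figure D3:**
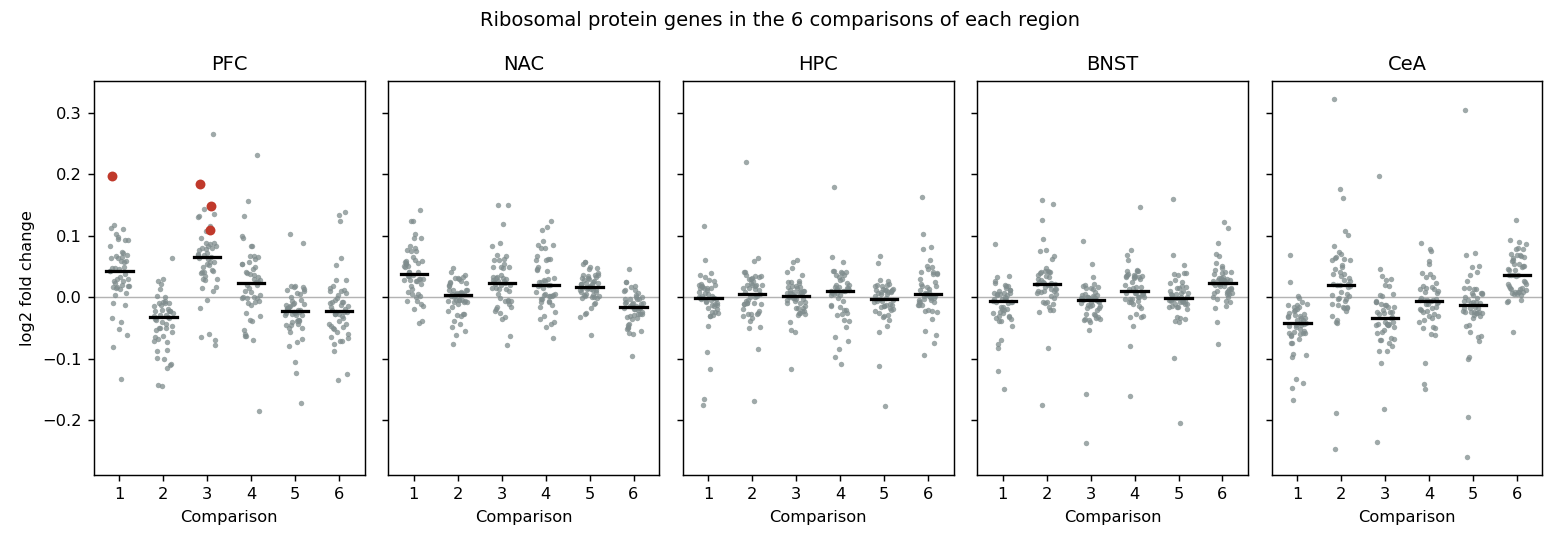
Log2 fold change (vertical axis) of the 50 ribosomal protein genes in Comparisons 1 to 6 (horizontal axis) of each region. Each point is 1 gene, the bar is the median and larger red points mark an adjusted p of 0.01 or less. The 4 marked points, 1 in Comparison 1 and 3 in Comparison 3, are in the PFC, and the medians of the PFC and CeA lie on opposite sides of 0 in Comparisons 1 and 3.

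Outside the PFC no member was called in the 6 comparisons, nor for vapor, drinking or their interaction (limma, adjusted p of 0.01 or less). In the NAC 0.282%, 0%, 0.02%, 2.71%, 0.00222% and 0% of all probesets were called in Comparisons 1 to 6, and 0.777%, 0.0444% and 0% for vapor, drinking and the interaction. The members of the NAC lay mostly above 0 in Comparison 1, with 43 of 50 and a median of 0.04 against 40.6% and -0.02 over all genes, and 15 had an unadjusted p under 0.05, beside 14.7% of all genes. Rps26, a small subunit protein at the exit of the messenger channel, had the smallest adjusted p there, with values of 13.16, 13.23 and 13.30 in CIE Drinking mice and 13.07, 13.12 and 13.19 in Air Drinking mice. All 11 CIE Drinking arrays of the NAC lay above the Air Drinking mean of Rps26, and the log2 fold change was 0.10 ± 0.024 (limma adjusted p = 0.0253). The members among the ribosomal genes that the study drew from these arrays as part of a NAC module had NAC log2 fold changes of 0.06 (Rps7), 0.05 (Rps10), 0.10 (Rps26), 0.04 (Rpl12), 0.05 (Rpl35) and 0.01 (Rpl37a) in Comparison 1, which is no independent evidence of direction.

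In the HPC 1.23%, 0%, 0.0832%, 3.63%, 0% and 0% of all probesets were called in Comparisons 1 to 6, and 1.2%, 0.0292% and 0% for vapor, drinking and the interaction. The median of the members stayed within 0.01 of 0 in each of the 6 comparisons of the HPC, and at most 4 members had an unadjusted p under 0.05, those in Comparison 1, beside 14.7% of all genes. For the BNST the shares of probesets called were 0.943%, 0%, 0.401%, 1.22%, 0% and 0%, and 0.0698%, 0.00225% and 0%, in the same order. The medians of the members over the 6 comparisons of the BNST ran from -0.01 to 0.02, and 3, 6, 3, 4, 3 and 2 members had an unadjusted p under 0.05 in Comparisons 1 to 6, beside 24.5%, 9.07%, 18.5%, 10.8%, 2.79% and 11.4% of all genes. The interaction leaned below 0 in the BNST, with 7 of 50 members above 0, beside 52.7% of all genes, and a median of -0.03. In the CeA, 47 of 50 members were below 0 in Comparison 1, with a median of -0.04 against -0.02 over all genes (41.7% above 0), and 40 of 50 in Comparison 3, with a median of -0.03 (38.6% of all genes above 0). At an unadjusted p under 0.05 these held 11 and 7 members, beside 14% and 12.9% of all genes. The shares of probesets called in the CeA were 0.177%, 0%, 1.64%, 1.86%, 0% and 0% in Comparisons 1 to 6, and 0%, 1.14% and 0% for vapor, drinking and the interaction. In Comparison 6 of the CeA, which asks what drinking does without vapor, 46 of 50 members were above 0, beside 46.9% of all genes, with a median of 0.04, and 3 had an unadjusted p under 0.05, beside 4.44% of all genes.

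The response was therefore tested between regions, as the difference of a comparison in 1 region and the same comparison in another, in a single limma fit of the arrays of all regions with a mean for each region and group. That fit gives each probeset 1 variance over all regions. Its SE and adjusted p can be too small for a gene that varied more in 1 of the regions compared. Rpsa, for example, had an SD of 0.16 in CIE Drinking mice of the CeA and 0.07 in those of the NAC. Here each gene was read from its brightest probeset over all regions, which for Rpl7l1 is not the one that was brightest in the PFC. The pair of PFC and CeA held the most members called. In Comparison 1, 7 of 50 members had a higher response in the PFC than in the CeA, where 4.27% of all probesets differed and 2.5% were higher. In Comparison 3 it was 9 of 50, where 1.85% differed and 0.802% were higher, and in Comparison 4 none, where 2.24% differed. The interaction, added after the values of single regions had been seen, differed for 13 of 50 members, all higher in the PFC, where 3.65% of all probesets differed and 1.55% were higher. No member was called as lower. The shares, here and within regions, are over all probesets, while most members are bright. No share called among bright probesets is given. With 1 array left out the counts ran from 3 (without the PFC array of Air Drinking mouse 59) to 13 (without the CeA array of Air Drinking mouse 24) in Comparison 1, from 6 to 12 in Comparison 3 and from 9 to 16 in the interaction. Called or not, 45, 45 and 49 of 50 differences were above 0 in Comparison 1, Comparison 3 and the interaction, with medians of 0.09, 0.09 and 0.15, against 0.02, 0.01 and 0.02 over all genes. These tests share the CIE Drinking arrays of both regions. The members also vary together across arrays, so that the counts of differences above 0 do not count independent observations.

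Rpl22 had the smallest adjusted p in Comparison 3 and the interaction. Its CeA values were 12.37, 12.49 and 12.60 in CIE Drinking mice, 12.42, 12.50 and 12.71 in Air Drinking mice, 12.44, 12.58 and 12.64 in CIE NonDrinking mice and 12.37, 12.47 and 12.53 in Air NonDrinking mice. The CIE NonDrinking group was high in the CeA, where it was low in the PFC. The interaction was 0.20 in the PFC and -0.14 in the CeA, and their difference 0.34 ± 0.055 (limma adjusted p = 8.8e-06). Rpl22 was read here from the same probeset that can match several transcripts. Leaving out such probesets, or averaging the probesets of a gene, was not run between regions.

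Rps6 had CeA values of 9.42, 9.81 and 9.97 in CIE Drinking mice, 9.52, 9.91 and 10.36 in Air Drinking mice, 9.63, 10.00 and 10.19 in CIE NonDrinking mice and 9.61, 9.83 and 10.01 in Air NonDrinking mice. Each group with a single exposure was high in the CeA and low in the PFC. The interaction was 0.24 in the PFC and -0.31 in the CeA, a difference of 0.55 ± 0.097 (limma adjusted p = 4.3e-05). It had the largest difference of the 13 genes. The second, dimmer probeset of Rps6, whose interaction was negative in the PFC, was not read between regions.

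Rps10, a protein of the small subunit head, had PFC values of 12.79, 12.99 and 13.07 in CIE Drinking mice and 12.72, 12.86 and 12.97 in Air Drinking mice. In the CeA they were 13.19, 13.29 and 13.34, and 13.23, 13.32 and 13.47. In the PFC 11 of 12 CIE Drinking arrays lay above the Air Drinking mean, and in the CeA 1 of 12 did. The difference between regions was 0.17 ± 0.034 in Comparison 1 (limma adjusted p = 2.3e-04) and 0.24 ± 0.049 in the interaction (limma adjusted p = 3.7e-04).

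Rpl37a, a zinc-binding large subunit protein, was in the PFC above the Air Drinking mean on 12 of 12 CIE Drinking arrays, with values of 13.59, 13.65 and 13.69 against 13.47, 13.54 and 13.66. In the CeA, where the values were 13.55, 13.62 and 13.68 against 13.58, 13.66 and 13.75, 3 of 12 were above it. The difference between regions in Comparison 1 was 0.14 ± 0.029 (limma adjusted p = 2.4e-04). Rps26 differed in the interaction by 0.26 ± 0.052 (limma adjusted p = 4.0e-04), from 0.18 in the PFC to -0.08 in the CeA.

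Genes called between PFC and CeA beyond these came from both subunits. In Comparison 1 the genes called beside Rps10 and Rpl37a were Rps3a1, Rpl22, Rps24, Rpl27 and Rps7, with differences from 0.09 to 0.15. In Comparison 3 they were Rps20, Rplp2, Rps24, Rpl13a and Rplp0 beside Rpl22, Rps10, Rps26 and Rps6, with differences from 0.09 (Rpl13a) to 0.29 (Rps6). In the interaction they were Rpl8, a protein near the peptidyl transferase centre, and Rps9, Rps14, Rpl35, Rps20, Rpl19, Rpl27 and Rplp2. Their differences ran from 0.15 (Rps14) to 0.30 (Rps9). Rps9, Rps14, Rpl35 and Rps20 were read from probesets with a suffix of those that can match several transcripts. Of the small subunit genes 4, 5 and 6 of 21 were called in Comparison 1, Comparison 3 and the interaction, and of the large subunit genes 3, 4 and 7 of 22. No paralog was called. Rps27l, called within the PFC, had a difference of 0.42 ± 0.126 in Comparison 3 (limma adjusted p = 0.0254). Its CeA values ran from 10.64 to 12.28, and the SD in the CIE Drinking group of the CeA was 0.58, while in the PFC no group had an SD above 0.14.

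**Figure D4:**
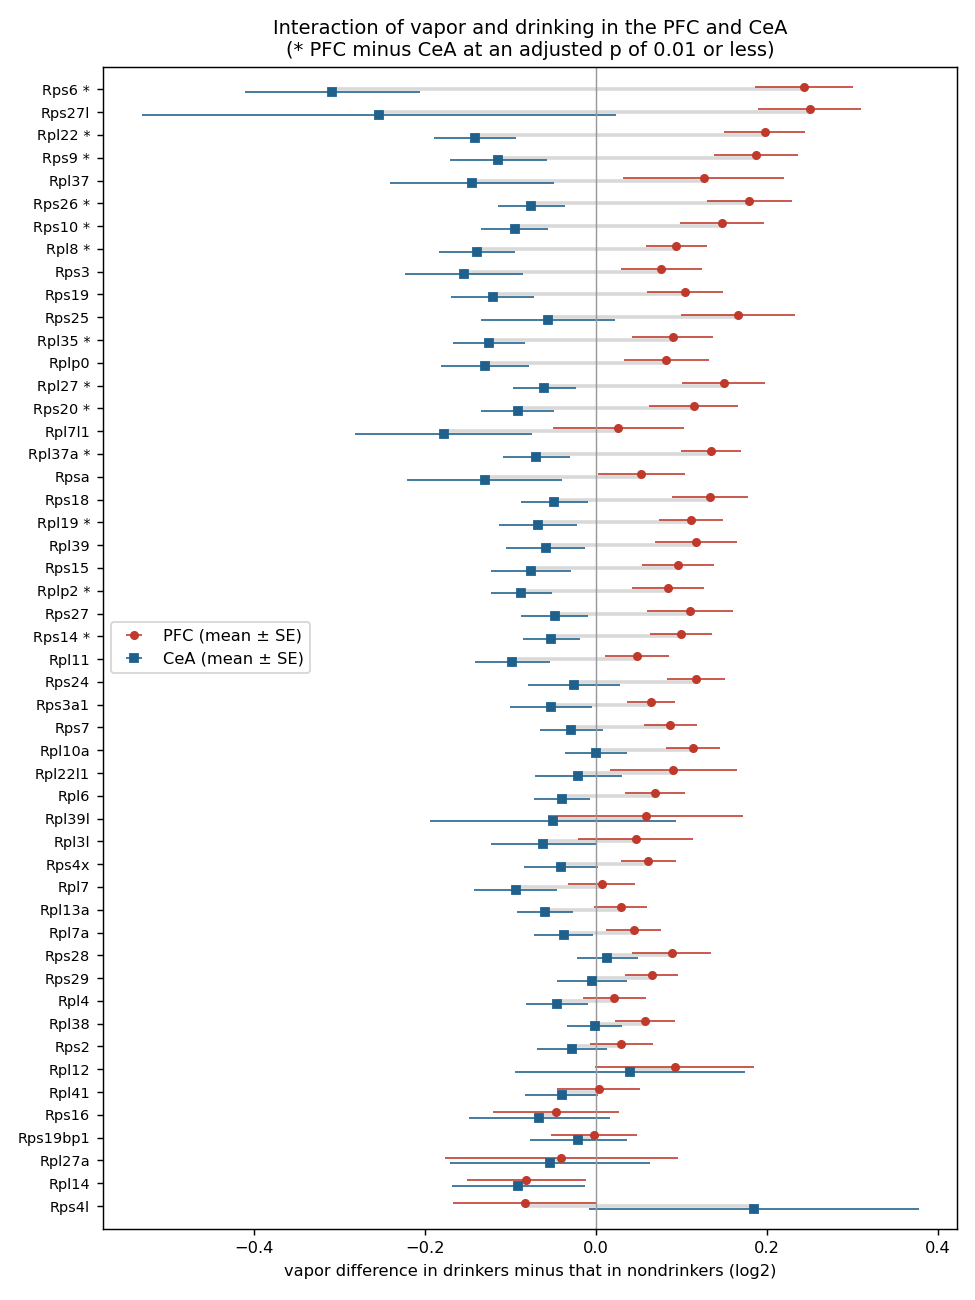
Interaction of vapor and drinking (horizontal axis, log2) of each of the 50 ribosomal protein genes in the PFC (circles) and CeA (squares), each with its SE, ordered by the distance between them. Stars mark the 13 genes whose PFC and CeA values differ at an adjusted p of 0.01 or less. For 49 of 50 genes the fitted PFC value lies to the right of the CeA value, the exception being Rps4l.

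Between other regions fewer members differed. NAC and CeA differed in Comparison 1 for 5 genes, where 2.05% of all probesets differed and 0.973% were higher: Rpsa by 0.25 ± 0.052 (limma adjusted p = 7.4e-04), Rps3a1 by 0.13, Rps26 by 0.15, Rpl11, a protein that also binds Mdm2, by 0.14, and Rps6 by 0.26. In the interaction NAC and CeA differed for Rps6 by 0.49 ± 0.097 and Rpl8 by 0.22 ± 0.050 (1.54% differed and 0.267% were higher). PFC and BNST differed for Rpl37a by 0.11 in Comparison 1 (2.33% differed and 1.04% were higher) and for Rps26 by 0.17 in Comparison 3 (0.321% and 0.0934%). The interaction differed between them for Rps26, Rpl37a, Rpl22, Rps25 and Rpl10a, by 0.14 to 0.41 (2.03% and 0.795%). Rps26 also differed between PFC and HPC in the interaction, by 0.22 ± 0.053, just within the threshold (limma adjusted p = 0.00987; 0.337% and 0.098%). No member was called between the remaining pairs of regions, or in Comparison 4 between any pair, where between 0% and 3.28% of all probesets were.

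Other genes of translation were read from lists to place the members. Of 18 genes whose products work with the ribosome (ribosome partners), 2 rose in Comparison 1 in the PFC, Naca by 0.14 and Btf3 by 0.14 (limma adjusted p = 0.0017 and 0.00353), which form the complex that shields nascent chains, where 1.87% of all probesets were called. Hnrnpa1, an RNA-binding protein, fell by 0.15 in Comparison 6 (limma adjusted p = 0.00423) and had an interaction of 0.20 (limma adjusted p = 0.00314), and Btf3 rose by 0.10 for vapor (limma adjusted p = 0.00622). Between PFC and CeA, 5 of the 18 were called in Comparison 1 (27.8%, beside 4.27% of all probesets; median 0.08), Naca at 0.23 ± 0.035 (limma adjusted p = 1.1e-06) followed by Btf3, Fau, Eif3k and Eef1b2, 1 in each of Comparisons 3 and 4 (5.56%, beside 1.85% and 2.24%; medians 0.08 and 0.03), Naca by 0.17 in both, and 5 in the interaction (27.8%, beside 3.65%; median 0.11), Fau, Naca, Eef1d, Eif3k and Eef2. All of these were higher in the PFC. Fau encodes a small subunit protein fused to a ubiquitin-like part and so stands outside the symbol rule, while Eef1b2, Eef1d and Eef2 are elongation factors.

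Genes that make ribosomes or start translation were called less often than the ribosome partners in Comparison 1 and the interaction. Of 50 ribosome biogenesis genes, 1 differed between PFC and CeA in Comparison 1 (Dkc1, by 0.15) and none in Comparison 3 or the interaction, with medians of 0.01, -0.04 and -0.03. Of all probesets 4.27%, 1.85% and 3.65% differed in these. Wdr43 differed by 0.24 in Comparison 4, where 2.24% of all probesets did. Of 27 initiation factors, Eif4a1 was higher in Comparison 1, while Eif4e, which binds the cap, was lower by 0.23 in Comparison 3 (-0.23) and, with Eif1ax, lower in the interaction. Eif4h and Eif4a1 were higher in Comparison 4, by 0.17 and 0.20. Within the PFC, Eif4e fell by 0.18 ± 0.033 in Comparison 3 (limma adjusted p = 6.4e-04). Of 22 genes of mTOR control, Tsc2 rose by 0.24 in Comparison 1 in the PFC, and Ddit4, an inhibitor of mTOR complex 1, had an interaction of 0.67 ± 0.106 in the PFC (limma adjusted p = 1.0e-04), which differed from that in the CeA by 0.75. Ddit4 was lower in Comparisons 2 and 6 of the PFC (-0.47 and -0.49, limma adjusted p = 2.0e-04 and 1.7e-04) and not called in Comparisons 1, 3 or 4. The 76 mitochondrial ribosomal protein genes had medians of 0.04, 0.03 and 0.07 between PFC and CeA with 1 gene called in each, and the 77 respiratory chain genes -0.02, 0.04 and 0.04 with 0, 0 and 1.

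Among lists of cell type markers, those of oligodendrocytes and microglia leaned with the members, over wider distances, and others did so in part. All 10 of 10 oligodendrocyte markers lay above 0 in the PFC and below 0 in the CeA in Comparison 1, Comparison 3 and the interaction, with medians of 0.28, 0.21 and 0.35 in the PFC and -0.32, -0.32 and -0.34 in the CeA. Olig2 rose in Comparisons 1 and 3 in the PFC, by 0.35 and 0.36, and was 0.66 higher in the PFC than in the CeA in Comparison 1 (limma adjusted p = 0.00176). The mean of the oligodendrocyte markers on a PFC array ran from -0.07 to 0.35 in CIE Drinking mice, -0.46 to 0.16 in Air Drinking mice, -0.38 to 0.32 in CIE NonDrinking mice and -0.32 to 0.36 in Air NonDrinking mice. On CeA arrays it ran from -0.87 to 0.78, -0.94 to 1.03, -0.59 to 0.70 and -0.76 to 0.77 in the same order. Microglia markers leaned likewise, with 10 of 10 above 0 in the PFC and 9 of 10 below 0 in the CeA in Comparison 1. Their array means ran from -0.02 to 0.16, -0.23 to 0.17, -0.21 to 0.11 and -0.14 to 0.08 in the PFC, and from -0.49 to 0.51, -0.44 to 0.59, -0.44 to 0.57 and -0.32 to 0.41 in the CeA.

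Of 10 astrocyte markers, 7 were above 0 in the PFC in each of Comparison 1, Comparison 3 and the interaction, with medians of 0.03, 0.00 and 0.02, and 7, 7 and 8 were below 0 in the CeA. Gfap, the filament protein of reactive astrocytes, rose in the PFC by 0.89 ± 0.173 in Comparison 1 and 0.70 ± 0.169 in Comparison 3 and had an interaction of 1.22 ± 0.242 (limma adjusted p = 0.00125, 0.00814 and 0.00116), the largest changes among the cell type markers called there. No astrocyte marker was called in the CeA in these, or between PFC and CeA, where 9, 8 and 7 of 10 differences were above 0. The mean of the astrocyte markers on an array ran from -0.03 to 0.14, -0.18 to 0.03, -0.16 to 0.10 and -0.15 to 0.21 in the PFC and from -0.32 to 0.22, -0.28 to 0.38, -0.37 to 0.21 and -0.25 to 0.34 in the CeA. The 10 markers of choroid plexus and ependyma had medians of 0.16, 0.11 and 0.21 in the PFC and 0.34, -0.78 and -0.52 in the CeA, and the 10 of endothelium and pericytes 0.01, -0.02 and -0.01 and -0.04, -0.15 and -0.14, with none called in either region. Array means of the choroid plexus and ependyma markers ran from -0.34 to 0.53 over the PFC arrays and from -3.18 to 1.35 over those of the CeA. Neat1, a nuclear noncoding RNA, was higher in the PFC than in the CeA in all of these, by 0.59, 0.60 and 0.86.

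Markers of neurons gave no single direction. In Comparison 1, 8 of 12 neuron markers were below 0 in the PFC and 6 of 12 in the CeA. Between PFC and CeA, Gad2 and Gad1, which make the transmitter GABA and also stand in the list of BNST and CeA neurons, differed in the same direction as the members in Comparison 1, by 0.65 ± 0.137 and 0.33 ± 0.089 (limma adjusted p = 5.2e-04 and 0.00681), and Gad1 in Comparison 4, by 0.38. In Comparison 3, 8 of 12 were below 0 in the PFC and 10 of 12 above 0 in the CeA, with none called between them. In the interaction 11 of 12 were below 0 in the PFC and 9 of 12 above 0 in the CeA, and Syt1, Syn1 and Nefl had differences of -0.35, -0.68 and -0.50, opposite to the members. The mean of the neuron markers on an array ran from -0.05 to 0.04, -0.11 to 0.13, -0.05 to 0.15 and -0.18 to 0.07 in the PFC and from -0.30 to 0.34, -0.30 to 0.25, -0.60 to 0.15 and -0.24 to 0.29 in the CeA. Markers of neighbouring tissue leaned as well: all 5 striatal markers were above 0 in the PFC in Comparison 1 (median 0.52) and below 0 in the CeA (median -0.45), and their array means ran from -0.56 to 1.16, -0.65 to 1.05, -0.74 to 1.06 and -0.60 to 0.86 in the PFC, and from -0.86 to 1.40, -0.62 to 1.79, -0.65 to 1.55 and -0.73 to 0.85 in the CeA. Of the 5 cortical markers, 4, 1 and 4 were below 0 in the PFC in Comparison 1, Comparison 3 and the interaction (medians -0.02, 0.05 and -0.18), and 2 of 5 in the CeA in each (medians 0.31, 0.48 and 0.80). Those called in the PFC were Cux2 and Rorb in Comparison 1 (-0.67 and -0.50; limma adjusted p = 0.00425 and 0.0081) and Cux2 in the interaction (-0.94; limma adjusted p = 0.0031). All 5 differences between PFC and CeA were below 0 in each of these. Of the 8 markers of BNST and CeA neurons, all were below 0 in the CeA in Comparison 1 (median -0.50), with array means from -0.98 to 0.77, -0.74 to 0.85, -1.31 to 0.88 and -1.14 to 0.70. The part of these cell types and tissues in the results on ribosomal protein genes was not tested.

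**Figure D5:**
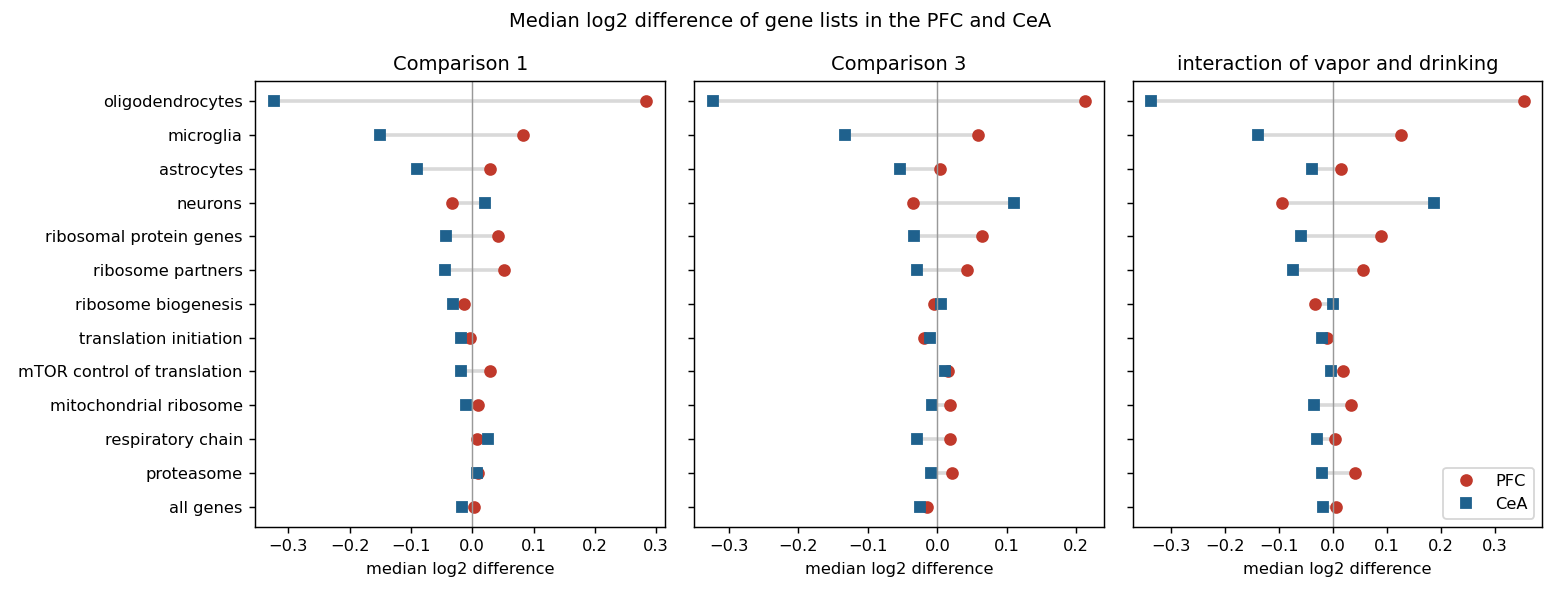
Median log2 difference (horizontal axis) of gene lists in the PFC (circles) and CeA (squares) in Comparison 1, Comparison 3 and the interaction of vapor and drinking. The ribosomal protein genes and ribosome partners lie right of 0 in the PFC and left of 0 in the CeA, the oligodendrocyte and microglia markers do so over a wider distance, and the ribosome biogenesis and translation initiation lists lie near 0.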

How the data were processed

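RNA of 5 brain regions was hybridized to 1-colour expression arrays. The deposited values were log2 intensities, which the authors had made with RMA and quantile normalization, region by region, followed by ComBat for the hybridization batch; versions are not given in the sources used here. Since regions were normalized separately, levels were not compared between regions, except for the markers of the tissue labels. Those were read relative to the median of all probesets in each region. Batches are not named in the labels used here, so no within-batch value was computed. Precision is limited by how many arrays a group has.

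Probesets without a value on every array of a region were left out, 0 in the PFC and up to 1068 in the CeA. Each region was fitted with 1 mean per group in limma 3.58.1 (R 4.3.3, statmod 1.5.0), and p-values were adjusted by Benjamini-Hochberg over all its probesets, with calls at 0.01 or less. Differences between regions were tested in 1 fit of all arrays over 43893 probesets. The script was tested on simulated data. Promoters were searched with Python 3.11.15 and figures drawn with matplotlib 3.10.9.

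The members, the other gene lists and the tests were chosen with earlier results of these data known. Genes were named where called (at most 5 in each direction), or because they belong to the stalk, to a paralog pair, to S6 kinase signalling or to the study's NAC module; other genes were chosen after their values were seen. Alternatives were the variance model, array weights, the fit of 2 groups, a repeated quantile normalization, filters and averages of probesets, the threshold, the mouse block and leaving out arrays. Between regions, only the variance model, dim filter, threshold, mouse block and, for PFC and CeA, leaving out arrays were run.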

Additional observations from a re-analysis of the deposited data

Results flagged for a closer look

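Outlying arrays were sought only in groups of 4 to 10 arrays, the Air NonDrinking groups of the HPC, BNST and CeA. In 4 of 105 sets of values, each of 1 gene or of the mean of the members in 1 group, 1 array lay far from the others. Chance gives about 1 in 20 such sets, but the sets of a group share arrays and are not independent. The outlying values were the lowest Air NonDrinking arrays of the HPC for Rpl10a (log2 value 12.84, next 12.92), Rpl22l1 (12.67, next 12.71) and Rps10 (13.34, next 13.41), and the lowest Air NonDrinking array of the BNST for Rpl39 (6.87, next 7.03).

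The response differed between regions, by the limma test of the difference, for 7 members in Comparison 1, 9 in Comparison 3 and 13 in the interaction between PFC and CeA. It differed for 1, 1 and 5 members between PFC and BNST, for 5 in Comparison 1 and 2 in the interaction between NAC and CeA, and for 1 in the interaction between PFC and HPC. The 13 interaction differences between PFC and CeA, on the log2 scale, were 0.55 for Rps6, 0.34 for Rpl22, 0.30 for Rps9, 0.26 for Rps26, 0.24 for Rps10, 0.23 for Rpl8, 0.21 for Rpl35, 0.21 for Rpl27, 0.21 for Rps20, 0.20 for Rpl37a, 0.18 for Rpl19, 0.17 for Rplp2 and 0.15 for Rps14. Within the PFC, the vapor difference in drinkers differed from that in nondrinkers by 0.25 for Rps27l, 0.24 for Rps6 and 0.20 for Rpl22.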

How the results depend on the processing

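Counts of members called could shift under the alternatives run but could not reverse. For the named genes called in the PFC, no log2 fold change switched sign under an alternative that kept the gene. At an adjusted p of 0.05 or less, the members called were 5, 5, 12, 3 and 1 in Comparisons 1, 2, 3, 4 and 6 and 9 in the interaction of the PFC, and 1, 1 and 3 in Comparisons 1, 3 and 4 and 1 for vapor in the NAC. Between regions, in Comparison 1, Comparison 3, Comparison 4 and the interaction, they were 18, 22, 4 and 22 for PFC and CeA, 2, 1, 2 and 4 for PFC and HPC, and 2, 4, 1 and 12 for PFC and BNST; for NAC and CeA they were 12, 4 and 5 in Comparison 1, Comparison 3 and the interaction, and for NAC and BNST 1 in the interaction. Array quality weights gave 8, 8 and 10 in Comparison 1, Comparison 3 and the interaction of the PFC, 1 for vapor in the PFC, 2 in Comparison 4 of the NAC and 1 in Comparison 1 of the BNST. Without dim probesets, the PFC gave 3, 7 and 8, Comparison 4 of the NAC 2, PFC and CeA 12 in Comparison 1 and 1 in Comparison 4, NAC and CeA 1 in Comparison 3, and PFC and HPC 2 in the interaction. Trended and robust variances gave 2, 7 and 8 in the PFC, 3 in Comparison 4 and 1 for vapor in the NAC, 1 for PFC and CeA in Comparison 4 and 2 for PFC and HPC in the interaction. Comparison 3 of the PFC gave 6 with only its 2 groups fitted and 1 with the probesets of each gene averaged, and a repeated quantile normalization gave 2 in Comparison 1. Without probesets of suffix _x_at or _s_at, drinking in the PFC gave 0, because this filter removes the only probeset of Rpl37. With the mean of all probesets, Rps6 had an interaction of 0.08 in the PFC (limma adjusted p = 0.322). Apart from the loss of Rpl37 for drinking in the PFC, the cause of these shifts was not tested. The share of all probesets called was not computed under these alternatives, so these counts cannot be set against a background.

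No paired analysis was possible within a region because no mouse number occurs in more than 1 group. Between regions, where a number marks the same mouse, the mouse as a replicate block (correlation 0.0146) gave 8 members for PFC and CeA in Comparison 1 and 2 for PFC and HPC in the interaction.

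Leaving out each array in turn was chosen after seeing the data. For the PFC the members called numbered 0 to 2 (Comparison 1), 1 to 7 (Comparison 3), 0 to 1 (Comparison 4), 0 to 1 for drinking, 0 to 7 in the interaction and 0 elsewhere. Comparison 1 gave 0 without Air Drinking mouse 59 and 2 without Air Drinking mouse 28, 30, 57 or 60 or CIE NonDrinking mouse 39. Comparison 3 gave 1 without CIE NonDrinking mouse 35, 5 without CIE NonDrinking mouse 37, 6 without Air NonDrinking mouse 47 and 7 without CIE Drinking mouse 4, and Comparison 4 gave 1 without Air NonDrinking mouse 49 or 50. The interaction gave 0 without Air Drinking mouse 59, 1 without CIE NonDrinking mouse 35 or Air NonDrinking mouse 45 or 52, 5 without Air Drinking mouse 28 or 60 or CIE NonDrinking mouse 39, and 7 without CIE Drinking mouse 4. Rpl37 lost its call for drinking without any of 25 arrays. Between PFC and CeA the counts ran from 3 to 13 in Comparison 1 (3 or 4 without the PFC array of CIE Drinking mouse 14 or Air Drinking mouse 24 or 59, or the CeA array of CIE Drinking mouse 21 or Air Drinking mouse 27, 59 or 60, and 11 to 13 without the PFC array of Air Drinking mouse 57 or 60, or the CeA array of CIE Drinking mouse 6 or 14 or Air Drinking mouse 23 or 24), 6 to 12 in Comparison 3 and 9 to 16 in the interaction.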
